A study of Mus musculus with 6 samples.

Results

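The endothelial identity genes Pecam1, Cdh5, Kdr, Tek, Eng, Emcn, Esam, Vwf, Egfl7 and Cd34 were followed in RNA-seq counts from sorted tumor cells of MMTV-PyMT mice. They were found by symbol, and all 10 had a row among the 41388 Ensembl genes counted. They were picked with earlier results of the same samples known, among them the high values in the TIC sample that the labels number 6. Their levels in TICs and in other tumor cells are therefore given as a description. The mice (strain FVB/N-TgN(MMTVPyVT)634Mul/J, 12 weeks old) bear a PyMT oncogene that the MMTV promoter drives in mammary epithelium, and their mammary tumors spread to the lung. The 3 TIC samples were CD24+CD90+ cells, and the 3 control samples, called non-CD24+CD90+ tumor cells, were cells lacking either or both markers. CD45+ and dead cells were gated out of both. The series description names the controls more narrowly, as cells without CD24 and CD90. No endothelial marker was used in the sort. Each sample was a pool from 4 cell sorts, with 120 ng of RNA per library. TIC replicates 1 to 3 are the samples numbered 4 to 6, so that TIC replicate 3 is sample 6.

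Endothelial cells line blood and lymph vessels. Their identity is held by junction proteins that seal the lining, by receptors for VEGF and angiopoietin that direct vessel growth, and by surface sialomucins and blood-facing secreted proteins. ETS family transcription factors, which bind a GGAA core, are known regulators of many of these genes. Several are not limited to endothelium: Pecam1 and Eng are also made by some leukocytes and stromal cells, Vwf by megakaryocytes, and Cd34 by fibroblast-like stromal cells and hematopoietic progenitors.

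Promoter sequence was at hand for 6 of the 10 members, Kdr, Tek, Eng, Emcn, Egfl7 and Cd34. The 3 of these with the highest mean level are shown, so that the shared ETS core can be seen. Each window runs from 250 bases before to 50 bases after a RefSeq start site (GRCm38.p6) and is written in the direction of transcription. Capitals mark every GGAA and its reverse complement TTCC.
Cd34, chr1:194938571-194938870, plus strand: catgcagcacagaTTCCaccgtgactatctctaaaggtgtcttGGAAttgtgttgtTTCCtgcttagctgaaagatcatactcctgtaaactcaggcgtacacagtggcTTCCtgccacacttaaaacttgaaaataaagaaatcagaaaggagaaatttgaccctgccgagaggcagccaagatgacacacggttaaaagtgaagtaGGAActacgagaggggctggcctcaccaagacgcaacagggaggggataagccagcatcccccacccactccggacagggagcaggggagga
Egfl7, the first of 3 listed start sites, chr2:26580833-26581132, plus strand: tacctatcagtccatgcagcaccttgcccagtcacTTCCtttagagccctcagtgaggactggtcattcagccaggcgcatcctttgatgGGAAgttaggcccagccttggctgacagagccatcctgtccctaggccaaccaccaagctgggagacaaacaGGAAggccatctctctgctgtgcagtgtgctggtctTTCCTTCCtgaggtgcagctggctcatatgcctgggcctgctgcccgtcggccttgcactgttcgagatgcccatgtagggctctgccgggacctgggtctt
Emcn, chr3:137340828-137341127, plus strand: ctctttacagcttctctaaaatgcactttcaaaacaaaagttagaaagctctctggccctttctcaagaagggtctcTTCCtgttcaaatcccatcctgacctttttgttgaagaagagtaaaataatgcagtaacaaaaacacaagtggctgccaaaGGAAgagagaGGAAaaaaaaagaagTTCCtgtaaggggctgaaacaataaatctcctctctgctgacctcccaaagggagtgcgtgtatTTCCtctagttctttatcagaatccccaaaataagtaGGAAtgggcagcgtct
The Cd34 window held 5 matches to GGAA on either strand, the Egfl7 window 5 and the Emcn window 6. GGAA was found in all 8 windows of the 6 members, but also in 96.0% of 32544 distinct promoter windows of this length, with a median of 3 matches. The longer AGGAAG, searched on both strands and always containing a GGAA, was in 5 of the 8 windows, from Eng, Emcn, Egfl7 and Cd34, against 35.1% of all windows. No match was found for it in the Kdr and Tek windows. A match of letters is no proof of a bound factor.

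The libraries held between 6781239 and 9100552 counts. TIC replicate 3 stood apart from the other 5 samples. On the first principal component of log2 CPM, which held 31% of the variance, it lay at 165. TIC replicates 1 and 2 lay at -23.4 and -5.51, and the controls, below all TICs, between -56.9 and -34.7. TIC replicate 3 also had the fewest genes with a count, 12411 against 12860 to 13774. Of genes whose level in group mates predicted 20 to 60 counts, 39.7% were at 0 in TIC replicate 3, and 19.1% to 31.9% were at 0 elsewhere. A low or missing value in 1 library therefore weighs little, and a high value in TIC replicate 3 likewise rests on 1 library. Tumor epithelium was present in every sample: Epcam, the epithelial adhesion molecule, lay between 1115.5 and 1546.7 CPM and Krt18, a luminal keratin, between 1552.1 and 2814.5 CPM. Ptprc, which encodes CD45, had 33 counts in control replicate 1 and 0 elsewhere. Below, CPM are counts scaled to library size after TMM normalization. A gene was called when edgeR's exactTest gave a Benjamini-Hochberg adjusted p-value below 0.1 over all 12192 expressed genes, those above 1 CPM in at least 3 samples.

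All 10 members passed this filter. Cd34 was higher in every TIC sample, and it was the 1 member called. The other 9 overlapped between the groups, and 8 members reached their highest level in TIC replicate 3 at 2-fold or more above the mean of TIC replicates 1 and 2. Over all genes, 1.36% were called higher in TICs, in 7.69% every TIC sample was above every control sample, 21.9% were highest in TIC replicate 3 and 15.7% reached that 2-fold distance. Since the members were chosen on these samples, nothing is read from the difference. The log2 fold changes (TICs minus non-CD24+CD90+ tumor cells) ran from 0.80 for Vwf to 1.73 for Egfl7, with a median of 1.16 against -0.01 for all expressed genes. Without TIC replicate 3 the median was 0.52 against 0. In these pooled sorts, more endothelial cells and more of these RNAs per cell cannot be told apart.

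**Figure D1:**
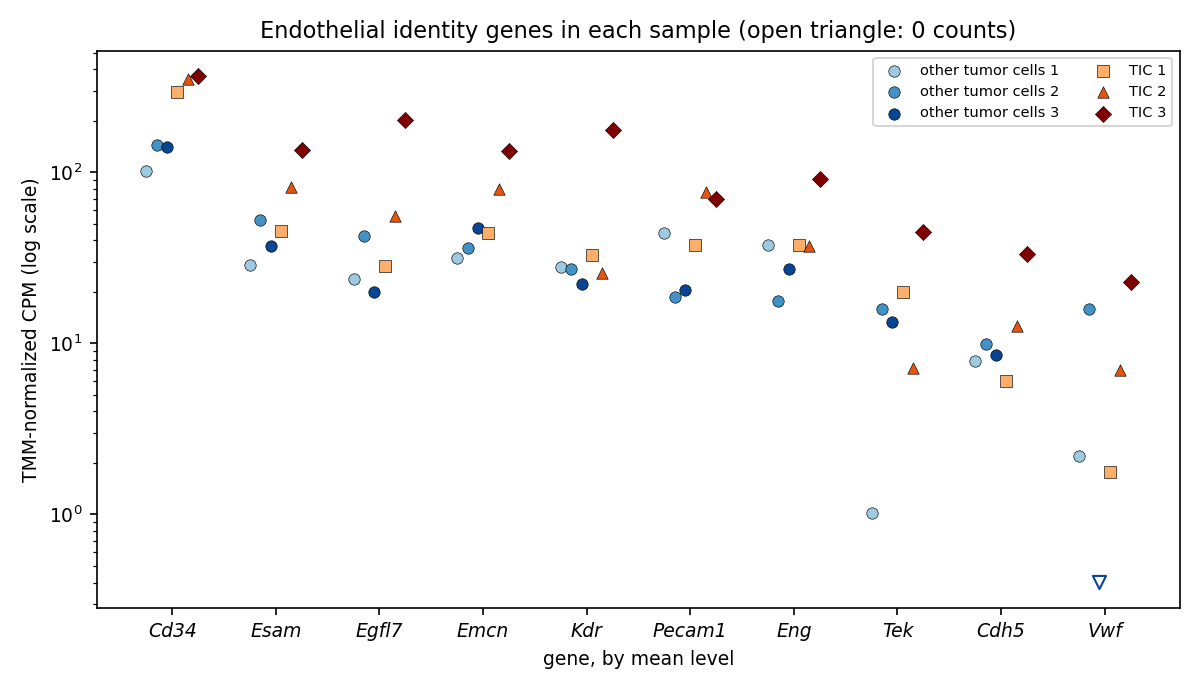
TMM-normalized CPM (log axis) of the 10 endothelial identity genes, 1 point per sample, ordered by mean level; the open triangle marks Vwf at 0 counts. TIC replicate 3 (diamonds) is the highest sample in 9 genes, and in Cd34 alone do all 3 TIC samples lie above all 3 control samples.

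Pecam1 (ENSMUSG00000020717, chr11:106654217-106750628 of GRCm38) encodes CD31, an adhesion molecule of endothelial junctions. Control replicates 1 to 3 had 44.5, 18.8 and 20.5 CPM, and TICs had 37.7, 76.8 and 70.3 CPM. TIC replicates 2 and 3 were above all controls, while TIC replicate 1 lay below control replicate 1. It was the 1 member whose highest sample was not TIC replicate 3. Its log2 fold change was 1.14 (standard error 0.53), and 1.06 (standard error 0.59) without TIC replicate 3. Along with Cd34 it thus depended least on that sample.

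Cdh5 (ENSMUSG00000031871, chr8:104101625-104144511) encodes VE-cadherin, the cadherin of endothelial adherens junctions. Its 3 control values were close together, at 7.88, 9.87 and 8.58 CPM, and TICs had 6.04, 12.6 and 33.3 CPM. TIC replicate 1 was the lowest of all 6 samples and TIC replicate 3 the highest, on 55 and 252 counts. The log2 fold change of 0.98 (standard error 1.0) fell to 0.11 (standard error 1.22) without TIC replicate 3. Esam (ENSMUSG00000001946, chr9:37528078-37538319), an immunoglobulin-like adhesion molecule of endothelial tight junctions, had 28.9, 52.7 and 36.9 CPM in controls and 45.6, 82.0 and 134.8 CPM in TICs. TIC replicates 2 and 3 were above all controls, and TIC replicate 1 lay below control replicate 2. Its log2 fold change was 1.15 (standard error 0.47) with all samples and 0.71 (standard error 0.51) without TIC replicate 3.

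Kdr (ENSMUSG00000062960, chr5:75932827-75978458) encodes VEGFR2, the main signalling receptor for VEGF-A. Controls had 28.0, 27.3 and 22.2 CPM, and TICs had 32.8, 25.8 and 176.7 CPM. TIC replicates 1 and 2 were within a few CPM of the controls, and TIC replicate 3 was 6.04-fold above their mean, the largest such ratio of the 10 members. The mean of TICs was 78.4 ± 85.2 CPM and that of controls 25.8 ± 3.2 CPM (SD, n = 3). The log2 fold change was 1.60 (standard error 0.63) with all samples and 0.20 (standard error 0.62) without TIC replicate 3.

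Tek (ENSMUSG00000006386, chr4:94739289-94874976) encodes TIE2, the angiopoietin receptor. Its levels were low and scattered, at 1.02, 15.9 and 13.3 CPM in controls and 19.9, 7.23 and 45.0 CPM in TICs, on 7 to 341 counts. TIC replicate 2 was below 2 of the 3 controls. Eng (ENSMUSG00000026814, chr2:32646595-32682669) encodes endoglin, a co-receptor for BMP9 and TGF-beta. It had 37.4, 17.6 and 27.2 CPM in controls and 37.7, 37.1 and 90.9 CPM in TICs. TIC replicates 1 and 2 were level with control replicate 1, and TIC replicate 3 was 2.43-fold above their mean. The log2 fold changes of Tek and Eng, 1.25 (standard error 1.02) and 1.01 (standard error 0.55), were 0.44 and 0.47 without TIC replicate 3.

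Emcn (ENSMUSG00000054690, chr3:137341067-137432185) encodes endomucin, a sialomucin of venous and capillary endothelium, whose promoter is shown above. Controls had 31.4, 35.9 and 47.5 CPM and TICs 44.5, 80.1 and 133.8 CPM. TIC replicate 1 lay between control replicates 2 and 3, and the other TIC samples were above all controls. The log2 fold change was 1.17 (standard error 0.47) and 0.72 (standard error 0.50) without TIC replicate 3. Cd34 (ENSMUSG00000016494, chr1:194938819-194961279) encodes the sialomucin CD34. It was the most abundant member by CPM, at 102.2, 143.9 and 139.9 CPM in controls and 294.2, 350.1 and 365.8 CPM in TICs. The groups did not overlap, and the 3 TIC samples were close together, at 336.7 ± 37.6 CPM against 128.6 ± 23.0 CPM (SD, n = 3). With all samples the log2 fold change came to 1.39 (standard error 0.30), and without TIC replicate 3 to 1.34 (standard error 0.31). It was called in that fit too, where 0.898% of all genes were called higher. It stayed the 1 called member by quasi-likelihood (0.402% of all genes called higher), DESeq2 (1.89%), RLE factors (1.45%) and library size alone (1.04%). The same held without a filter (0.629%), with at least 10 counts required in every sample (2.57%) and at a threshold of 0.05 (0.894%). It held as well without control replicate 1, 2 or 3 (0.724%, 0.756% and 0.587%) and without TIC replicate 2 (0.747%). Without TIC replicate 1, Kdr, Emcn, Esam and Egfl7 were called as well, which made 5 members (1.93%).

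Vwf (ENSMUSG00000001930, chr6:125546774-125686679) encodes von Willebrand factor, the blood clotting protein stored in endothelial granules. Its counts were 15, 141 and 0 in controls and 16, 60 and 174 in TICs, which gave 2.19, 16 and 0 CPM against 1.76, 7.0 and 23.0 CPM. The 0 in control replicate 3 allows up to 0.442 CPM at that depth, by counting error alone. The order of samples was mixed, and the log2 fold change of 0.80 (standard error 1.59) turned to -0.45 (standard error 1.85) without TIC replicate 3. Egfl7 (ENSMUSG00000026921, chr2:26580014-26593120) encodes a small secreted protein that endothelial cells lay down around growing vessels. It had 23.9, 42.6 and 20 CPM in controls and 28.4, 55.8 and 203.1 CPM in TICs. TIC replicate 1 was below control replicate 2, and TIC replicate 3 was 4.82-fold above the mean of the other TIC samples. The log2 fold change was 1.73 (standard error 0.61), the largest of the 10, and 0.57 (standard error 0.61) without TIC replicate 3.

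**Figure D2:**
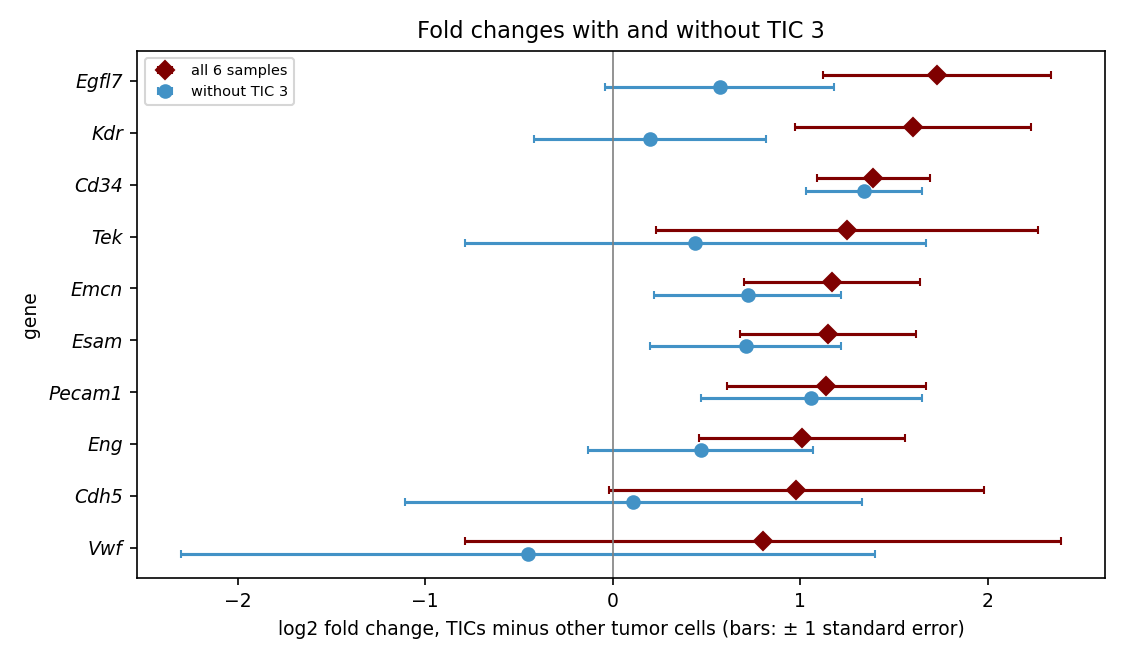
log2 fold changes of the 10 members, TICs minus non-CD24+CD90+ tumor cells, with bars of 1 standard error, from all 6 samples (diamonds) and without TIC replicate 3 (circles). Cd34 and Pecam1 keep their values, Kdr falls from 1.60 to 0.20, and Vwf changes sign.

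The members differed in how far TIC replicate 3 stood above the mean of the other TIC samples. TIC replicate 3 is 1 library, and whether its ratios differ among members beyond noise was not tested. Its ratio to the mean of TIC replicates 1 and 2 ran from 1.14 for Cd34 and 1.23 for Pecam1, through 2.11 to 2.43 for Esam, Emcn and Eng, to 3.32 for Tek, 3.57 for Cdh5, 4.82 for Egfl7, 5.25 for Vwf and 6.04 for Kdr. Over 8762 genes with a mean of at least 10 CPM, the median of this ratio was 0.957 and its 95th percentile 2.89. Vwf, with a mean of 8.32 CPM, is outside this set, and Cdh5 is in it only with TIC replicate 3 counted. The ratio of the mean of TIC replicates 1 and 2 to the control mean was highest for Cd34 (2.5) and Pecam1 (2.05), lay between 1.06 and 1.63 for the other members but Vwf, and was 0.722 for Vwf. Such a distance was also counted in each of the other libraries. For TIC replicates 1 and 2 the group mates include TIC replicate 3, where most members were high, which can lower their counts. With this few members, the counts outside TIC replicate 3 are not set apart from the share over all genes. At 2-fold above the mean of the other samples of its group stood 8 members in TIC replicate 3, 0 in TIC replicates 1 and 2, 1 and 2 in control replicates 1 and 2, and 0 in control replicate 3, while the share of all expressed genes ran from 12.5% to 15.8%. Over genes with a mean of at least 10 CPM, which include 9 members, it ran from 7.61% to 11.8% and was highest in TIC replicate 3.

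**Figure D3:**
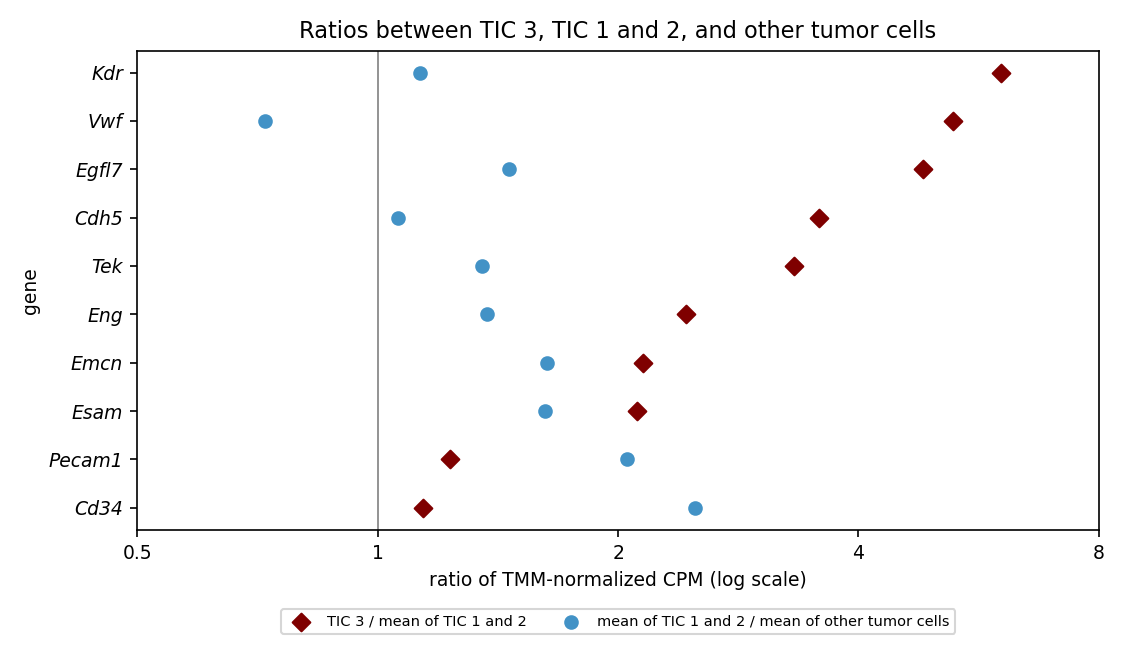
Ratios of TMM-normalized CPM (log axis) for each member, TIC replicate 3 over the mean of TIC replicates 1 and 2 (diamonds) and that mean over the mean of the 3 control samples (circles). Kdr, Vwf and Egfl7 have the largest ratios for TIC replicate 3, and Cd34 and Pecam1 the smallest.

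Summed over the 10 members, controls had 307.3, 380.5 and 336.0 CPM and TICs 548.5, 734.5 and 1276.6 CPM, so that TIC replicate 3 was 1.74-fold above the next sample. Cd34 made up 53.6% and 47.7% of the sum in TIC replicates 1 and 2, and 28.7% in TIC replicate 3. Without Cd34 the sums were 205.2, 236.6 and 196.1 CPM in controls and 254.3, 384.4 and 910.8 CPM in TICs. All TIC samples were still above all controls in this sum, with TIC replicate 1 closest to them. Levels of different genes were compared per kilobase of exon. In TIC replicate 3 the highest were Egfl7 (56.7 CPM per kb), Cd34 (50.2) and Esam (47.0) and the lowest Vwf (1.43). In the other TIC samples Cd34 led at 40.4 and 48.0 CPM per kb, with Egfl7 at 7.92 and 15.6.

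A wider list of 40 endothelial genes that are not members was written with the study's list of regulated genes already read. Of these, 34 were expressed, 5 were called higher in TICs and 0 lower, at a background of 1.36% and 0.189%. Their median log2 fold change was 1.65, and 0.68 without TIC replicate 3, where 1 of 30 expressed was called. In 29 of the 34 the highest sample was TIC replicate 3. Tal1 and Nostrin passed the filter only through the TICs, so that these counts and medians are no support for a difference. TIC replicate 3 was the highest sample in 12 of 12 receptors, against 21.9% of all expressed genes. Robo4, a guidance receptor that steadies vessels, had 7.15, 16.2 and 11.4 CPM in controls and 26.0, 53.4 and 151.1 CPM in TICs without overlap and was called (edgeR's exactTest, adjusted p = 0.00959), at 2.72 on the log2 scale with a standard error of 0.62. Ptprb, the phosphatase VE-PTP that acts on TIE2 and VE-cadherin, was called too (edgeR's exactTest, adjusted p = 0.0833), at 1.95 on the log2 scale with a standard error of 0.57. Neither was called without TIC replicate 3, at log2 fold changes of 1.79 and 1.36. Flt1, the VEGF receptor 1 and the receptor of the list with the highest mean CPM, not corrected for its length, had 133.2, 100.1 and 47.3 CPM in controls and 77.4, 223.0 and 566.1 CPM in TICs and did not pass (edgeR's exactTest, adjusted p = 0.176).

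Among the 10 junction and adhesion genes edgeR's exactTest called none, with 4 at an unadjusted p below 0.05 and 0 called by quasi-likelihood or DESeq2. TIC replicate 3 was the highest sample in 8 of them, against 21.9% of all genes. Cd93, an endothelial surface lectin-like receptor, had 149.7, 136.2 and 100.7 CPM in controls and 109.8, 206.1 and 450.1 CPM in TICs. Mcam, which pericytes make as well, followed at 87.6, 122.9 and 226.8 CPM in TICs. Of 10 transcription factors 5 were expressed and 4 were highest in TIC replicate 3, at the same background of 21.9%. None was called by edgeR's exactTest, quasi-likelihood or DESeq2, and 1 had an unadjusted p below 0.05. Bcl6b had 69.5 CPM there and at most 12.8 CPM elsewhere, whereas the ETS factor Erg was not raised there, at 12 CPM against 20.4 CPM in TIC replicate 2. In the last group, Thbd (thrombomodulin, which turns thrombin anticoagulant) was called (edgeR's exactTest, adjusted p = 0.000466), at 2.33 on the log2 scale with a standard error of 0.44. It was called without TIC replicate 3 as well, with TIC values of 68.3, 120.7 and 138.4 CPM and control values from 13.7 to 26.9 CPM. Mmrn2, an endothelial matrix protein, and Tmem204, a junction-associated membrane protein, were called with all samples, at log2 fold changes of 1.98 and 2.83. Without TIC replicate 3, a fit with fewer samples, they were not called, at 1.26 and 2.55, so that Tmem204 kept most of its fold change. Rasip1, a regulator of endothelial junctions and vessel lumens, was 4.20-fold higher in TIC replicate 3 than in the mean of the other TICs and did not pass.

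Subtype genes did not move alike. Of 10 capillary genes 8 were expressed, 5 were called higher, and 7 were highest in TIC replicate 3. Over all genes 1.36% were called higher and 21.9% were highest in TIC replicate 3. The lists were chosen with earlier results of these data known, so these counts are a description. The fatty acid binding protein Fabp4 had 136.7, 91.3 and 56.5 CPM in controls and 191.9, 493.7 and 1225.4 CPM in TICs and was called (edgeR's exactTest, adjusted p = 0.000466), at 2.75 on the log2 scale with a standard error of 0.51. The fatty acid translocase Cd36, which adipocytes and macrophages also express, rose from 25.4 ± 7.89 CPM to 176.9 ± 117.7 CPM (SD, n = 3), and the water channel Aqp1 from 24.9 ± 6.47 CPM to 121.7 ± 75.5 CPM. These 3 were called without TIC replicate 3 too, but Cd300lg and Btnl9 were not. The log2 fold change of Cd300lg was 2.88 with all samples and 2.20 in that fit, and that of Btnl9 2.87 and 0.69. Btnl9 had 12.9, 21.1 and 199.4 CPM in TICs. Among 6 arterial genes, the gap junction gene Gja4 was called, with 0 to 4 counts in controls and 31, 60 and 362 in TICs. It was below 1 CPM in every control and so passed the filter only through the TICs, where it is high, and it did not pass without TIC replicate 3. In contrast Hey1, a Notch target, was lowest in TIC replicate 3, at 8.05 CPM against 54.6 and 40.1 CPM. Over all 6 samples its log2 fold change was 0.4. Efnb2, an arterial ephrin, changed by -0.24 on the log2 scale with a standard error of 0.76, which did not pass. Gja5 and Dll4 went the other way, with log2 fold changes of 2.8 and 1.21, and were not called either. Bmx did not pass the filter. The venous genes Ephb4 and Nr2f2 had 186.4 and 95.7 CPM in TIC replicate 3, against 161.8 and 76.4 CPM in TIC replicate 1 and 155.5 and 162.3 CPM in TIC replicate 2. None of the venous, tip cell and lymphatic genes was called by edgeR's exactTest or quasi-likelihood, with 1 gene of each list at an unadjusted p below 0.05, and DESeq2 called 1 lymphatic gene, Reln, which had no count in controls and passed the filter only through the TICs. The tip cell genes of highest mean CPM, Pgf and Apln, had log2 fold changes of -0.96 and -0.19, and Angpt2 had -0.84. Kcne3 and Esm1 went the other way, at 2.11 and 1.37. Of the 6 lymphatic genes 2 were expressed, and Prox1, their defining transcription factor, had 0 counts in TIC replicate 3, while Reln had 136.

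**Figure D4:**
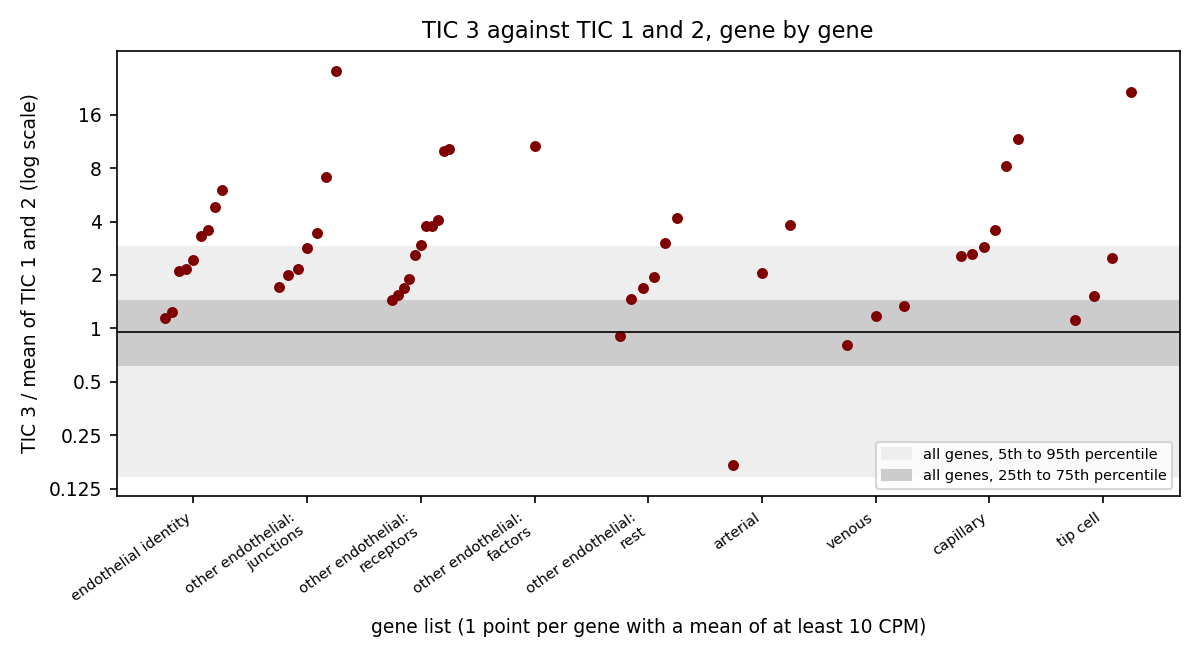
Ratio of TIC replicate 3 to the mean of TIC replicates 1 and 2 (log axis), 1 point per gene with a mean of at least 10 CPM, for the members and the other endothelial lists; bands and line show percentiles and median over 8762 genes. Of the members 7 of 9 lie above the 75th percentile (1.42), as do 7 junction, 11 receptor and 6 capillary genes, but Cdh5, Cldn5, Clec14a, S1pr1, Bcl6b and Esm1 reach 10 CPM only with TIC replicate 3 counted; the 3 venous genes lie within the inner band.

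Summed markers of some other cell types differed between the groups as well. The summed level of 9 pericyte and smooth muscle markers was 540.1 to 665.1 CPM in controls and 949.7, 1289.3 and 1451.9 CPM in TICs, with 1 of 9 called (Rgs5, 243.0 ± 0.34 against 665.0 ± 136.0 CPM, SD, n = 3). Over all genes 1.36% were called higher. The median log2 fold change of the 9 was 0.96, but the smooth muscle genes Acta2 and Myh11 had -0.01 and 0.07. The summed level of 9 fibroblast markers was 2957.3 to 3305.8 CPM in controls and 7732.4, 10664.8 and 11045.5 CPM in TICs. Of the 9, 6 were called, among them Col1a1 and Col1a2, at the same background of 1.36%. In TIC replicate 3 these sums were 1.30-fold and 1.20-fold above the mean of the other TICs. The sum of the 10 members was 1.99-fold above it (2.85-fold without Cd34) and that of the 40 other endothelial genes 2.75-fold. Abundant genes weigh most in such sums, and single genes went both ways. The ratio ran from 0.511 for Kcnj8 to 3.43 for Abcc9 among pericyte markers. Among fibroblast markers it ran from 0.581 for Pi16 to 1.69 for Dcn. TIC replicate 3 was the highest sample in 4 of 9 pericyte and 2 of 9 fibroblast markers. The sum of 10 luminal markers was 5985.5 to 6412.9 CPM in controls and 4038.5 to 4697.1 CPM in TICs. Of these, edgeR's exactTest and quasi-likelihood called none, 2 had an unadjusted p below 0.05, and DESeq2 called 2. The sum of 12 leukocyte markers was 60.3 to 77.1 CPM in controls and 231.9, 150 and 102.8 CPM in TICs, above all controls in each TIC sample and lowest among TICs in replicate 3. The 7 expressed genes of this list did not move alike. Lyz2, Coro1a, Laptm5 and C1qa had positive log2 fold changes, and Csf1r (-1.68), Cd68 (-0.31) and Cd52 (-0.2) negative ones. The macrophage and neutrophil lysozyme Lyz2 was called higher (edgeR's exactTest, adjusted p = 0.0125, 2.68 on the log2 scale), also without TIC replicate 3, and Cd3e was at 0 in every sample. Platelet markers summed to 4.67, 1.48 and 9.87 CPM in controls and 17.5, 14.5 and 6.20 CPM in TICs, and Gp9 and Gp1bb had no count in any sample. Of the sorting markers, Thy1, the gene of CD90, had 70.3 CPM in TIC replicate 3 against 90.7 and 206.9 CPM in the other TICs and 75.9, 56.7 and 21.6 CPM in controls. Cd24a had 356.1 CPM there and between 314.9 and 602.0 CPM elsewhere. The part of these other cells in the members' levels was not tested.

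**Figure D5:**
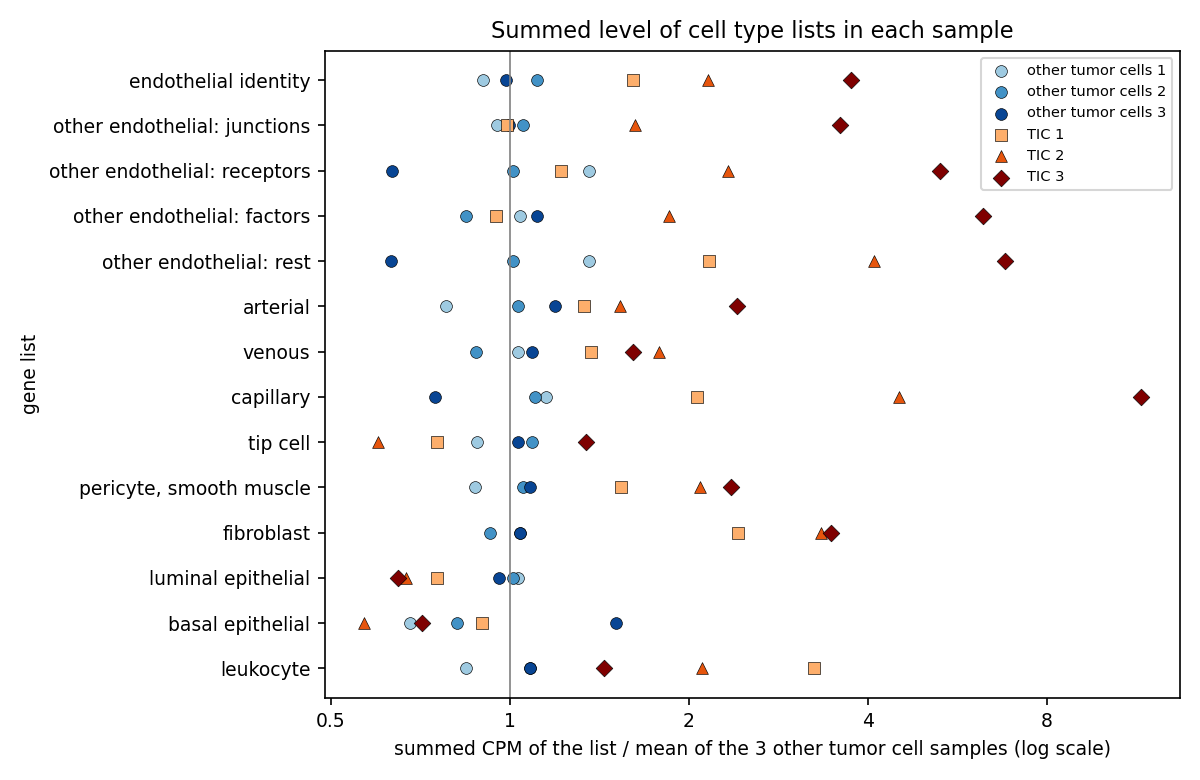
Summed CPM of each gene list divided by the mean of the 3 control samples (log axis), 1 point per sample. TIC replicate 3 (diamonds) stands clear of the other TIC samples in the endothelial identity, other endothelial and capillary lists. In the venous list it lies between TIC replicates 1 and 2 (1.61 against 1.37 and 1.78), and in the fibroblast list beside TIC replicate 2.

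The genes most alike in pattern were ranked by Pearson r over the 6 samples between log2 CPM and the members' mean profile, among the 8762 genes with a mean of at least 10 CPM. The 10 leading genes that are not members were Laptm4a, Ttc14, Apod, Mir351, Pdgfrb, Itga9, Cep162, Robo4, Vldlr and Frem1, with r from 0.964 to 0.996. One of them, Robo4, is on the endothelial lists, and Pdgfrb, a growth factor receptor, is a pericyte marker, at 184.9, 210.3 and 322.9 CPM in TICs. The coefficient takes no account of size: Laptm4a led with 755.3 CPM in TIC replicate 3 and 466.3 to 596.7 CPM in the others. In all, 109 genes (1.24%) had r over 0.9. Among the 9 members in this set r was highest for Egfl7 (0.985) and Esam (0.970) and lowest for Tek (0.645) and Pecam1 (0.634). Each of them was compared with a mean profile that contains the member itself, so these values only describe the profile. Vwf was part of the profile but too low to be ranked, and Cdh5 is in the set only with TIC replicate 3 counted. All points share the same 6 libraries.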

How the data were processed

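RNA of TICs and of control tumor cells, 3 samples each, was sequenced on an Illumina HiSeq. Following their methods and the submitters' processing notes, the authors used Trimmomatic 0.32 for trimming and STAR 2.4.0 for alignment to GRCm38, dropped reads that were not uniquely mapped with samtools 1.1 and counted with HTSeq. The deposited values are raw counts per Ensembl gene. Annotation release and strand setting are not given in the sources used here. Exons of Eng and Egfl7 overlap Fpgs and Agpat2 on the opposite strand (366 and 946 counts over all samples), so that reads there could be split, lost or misassigned.

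Symbols and exon lengths came from GENCODE M21 (GRCm38), with 40254 of 41388 genes named. Genes above 1 CPM in at least 3 samples were tested with exactTest of edgeR 4.0.16 (R 4.3.3) after TMM normalization, the test in the study's methods, at a threshold of 0.1. The CPM threshold of the study is not stated. Standard errors came from the negative binomial fit with tagwise dispersions. Principal components and correlations used log2 CPM with a prior count of 2. Depth, 6781239 to 9100552 counts, makes 3 counts worth 0.330 to 0.442 CPM by counting error only. The scripts were tested on simulated counts. The study calls the samples biological triplicates, each a pool from 4 sorts, from 12 mice in all. The labels do not say which mice went into which pool, so that both groups may hold cells of the same mice.

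Alternatives were edgeR's quasi-likelihood test, DESeq2 1.42.0, RLE factors, library size alone, other filters, a threshold of 0.05 and each sample left out. Named were all members, in each further endothelial list the called genes and the 2 of highest mean CPM, and the 10 most alike in pattern. Genes named in support of a list's count beyond these were chosen after their values were seen. The members and lists were chosen with earlier results of these data known. The other cell type lists (pericyte, fibroblast, luminal, basal, leukocyte, platelet, erythroid, adipocyte) were summed and their called genes counted. Basal markers summed to 377.6 to 1001.3 CPM, erythroid to 15.4 to 166.0 CPM and adipocyte to 0 to 9.68 CPM per sample.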

Additional observations from a re-analysis of the deposited data

How the results depend on the processing

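Cd34 was called under all 12 alternative fits, with log2 fold changes from 1.26 to 1.49, and at a threshold of 0.05. Leaving out 1 sample gave 1 to 5 called members: without TIC replicate 1, Kdr, Emcn, Esam and Egfl7 were called too, where 1.93% of all genes were called higher. The log2 fold change of Vwf was -0.45 without TIC replicate 3 and 3.26 without control replicate 2. Of 118 member values under the alternatives, 113 kept direction and call. This count takes no account of size: an uncalled member that stayed positive and uncalled was kept, as was Kdr at 1.60 and then 0.20 without TIC replicate 3. The members' median log2 fold change ran from 0.52 (without TIC replicate 3) to 1.44 with 1 sample left out and from 1.09 to 1.20 otherwise. The cause of these shifts was not tested.

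The summed level in TIC replicate 3, 1.74-fold above the next sample, was 1.63-fold by library size alone, 2.37-fold without Cd34 (also the member of highest mean CPM), 1.94-fold as the median over members, and 1.74-fold to 2.33-fold with another sample left out. The 5 called among other endothelial genes were 1 by quasi-likelihood, 3 without a filter, 3 at a threshold of 0.05 and 1 to 11 with 1 sample left out, and the 6 called subtype genes 3 by quasi-likelihood and 3 to 5 with 1 sample left out. Over all genes the 189 calls were 50 by quasi-likelihood, 306 by DESeq2, 112 without a filter, 116 at a threshold of 0.05 and 72 to 323 with 1 sample left out. No paired analysis was possible because the labels give the groups no shared replicate numbers. Low counts, as for Vwf and Tek, limit what the depth can show.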
